A study of Mus musculus with 12 samples.

Results

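The cardiac natriuretic peptide system was followed through 6 genes: the peptide hormone genes Nppa and Nppb, the convertase gene Corin and the receptor genes Npr1, Npr2 and Npr3. They were taken by symbol from a count table of 49492 rows, and all 6 were among the 15542 genes that passed a filter on low counts and were tested. RNA had been sequenced from mouse left ventricle in 12 libraries, 3 in each of 4 groups. The groups were wild-type mice (WT) and Alox5 knockout mice (Alox5ko), each with TAC or with the treatment labelled NS. TAC stands for transverse aortic constriction, surgery in which a tie around the aorta loads the left ventricle with pressure, and NS, which the labels do not spell out, was the group without it. Alox5 encodes arachidonate 5-lipoxygenase, the enzyme that starts leukotriene synthesis. The design text speaks of cardiac deficiency, whereas the labels give only the genotype and name no promoter or Cre, age, sex or time after surgery.

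Atrial natriuretic peptide (from Nppa) and B-type natriuretic peptide (from Nppb) are hormones that cardiac myocytes secrete when the wall is stretched. The atria make Nppa throughout life, while the ventricle makes much less of it after birth and raises both genes again under load, so that both serve as markers of hypertrophy. Corin, a protease on the myocyte surface, cuts the Nppa precursor to its active form; Npr1 and Npr2 are receptors with guanylyl cyclase activity that answer by making cGMP, and Npr3 takes the peptides up and clears them.

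Library totals ran from 20889431 to 27311196 counts and normalization factors from 0.945 to 1.035. Alox5 was at 9.56 to 13.9 CPM (counts after scaling every library to one size) in the 6 WT libraries and at 0.934 to 1.46 CPM in the 6 Alox5ko libraries, so every library was in keeping with its genotype label. Cardiomyocyte markers were read as a check for heart muscle, which cannot tell the left ventricle from other chambers. They summed to 151210 to 190571 CPM, with the lowest sum in Alox5ko_NS 3. That library also had the largest share of mitochondrial counts, 21.4% against 14.6% to 18.7% in the others. Whether the 3 libraries of a group are separate animals is not stated, and p-values then cover only the spread between these samples, which may be technical. In bulk tissue, fewer cells of a type and less RNA per cell cannot be told apart.

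Between genes, levels were compared in RPKM (counts divided by gene length and library total, as the authors deposited them). Nppa and Nppb stood far above the rest, Nppa at 175 to 1466 RPKM and Nppb at 102 to 449 RPKM over the 12 libraries. Corin followed at 8.75 to 13.1 RPKM, then Npr2 at 4.17 to 5.84, Npr1 at 1.41 to 2.89 and Npr3 at 0.677 to 1.85 RPKM. Neighbours in this order were separated without overlap between Nppb and Corin, between Corin and Npr2 and between Npr2 and Npr1. The ranges of Nppa and Nppb overlapped, and so did those of Npr1 and Npr3, although Npr1 exceeded Npr3 in RPKM within every library. Nppa ranked between 34 and 218 among the genes of a library by RPKM, its best rank being in Alox5ko_TAC 3 and its lowest in WT_NS 3. Nppc, which encodes the C-type peptide that binds Npr2, had 0 to 2 counts in each library and was not tested.

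The peptide genes lie side by side on chromosome 4 (build GRCm38, which is mm10, GENCODE release M21). Nppb (ENSMUSG00000029019.8) spans 147985788 to 147987205 and Nppa (ENSMUSG00000041616.9) spans 148000722 to 148002079, both on the plus strand, 13516 bases apart with 0 annotated genes between them. Their promoter windows are shown because these were the members with the largest TAC differences, and that of Npr1 because it is the one that holds a word of the Runx family, whose member Runx2 the series title names. Each window covers 250 bases before and 50 bases after the RefSeq transcript start (GRCm38.p6) and is printed 5′ to 3′ on the gene's strand, with the words found in capitals.
Nppa, chr4:148000472-148000771, plus strand: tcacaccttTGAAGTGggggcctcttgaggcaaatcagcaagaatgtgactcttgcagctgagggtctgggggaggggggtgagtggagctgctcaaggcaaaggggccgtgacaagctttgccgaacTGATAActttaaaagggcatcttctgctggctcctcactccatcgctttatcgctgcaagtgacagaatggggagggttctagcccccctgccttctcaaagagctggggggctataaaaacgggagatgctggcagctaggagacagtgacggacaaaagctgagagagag
Nppb, chr4:147985650-147985949, plus strand: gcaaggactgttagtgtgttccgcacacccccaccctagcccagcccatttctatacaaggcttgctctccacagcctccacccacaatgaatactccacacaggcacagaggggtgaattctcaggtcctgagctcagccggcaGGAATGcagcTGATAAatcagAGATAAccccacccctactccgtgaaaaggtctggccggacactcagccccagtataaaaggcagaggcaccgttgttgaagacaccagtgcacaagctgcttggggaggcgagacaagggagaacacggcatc
Npr1, chr3:90465817-90466116, minus strand: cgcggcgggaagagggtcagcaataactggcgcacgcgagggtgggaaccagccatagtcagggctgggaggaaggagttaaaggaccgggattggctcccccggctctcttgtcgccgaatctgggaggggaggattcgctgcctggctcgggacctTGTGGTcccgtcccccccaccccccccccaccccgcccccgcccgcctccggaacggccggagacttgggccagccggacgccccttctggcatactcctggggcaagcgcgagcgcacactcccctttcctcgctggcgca
The RefSeq start of Nppb, at 147985900, differs from the start of the GENCODE gene given above.

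Words of 7 kinds were searched on both strands of all 6 members' windows. The words were those of GATA factors (GATA with A or T before it and A or G after it), NKX2-5 (TNAAGTG), TEAD (CATTCC), AP-1 (TGANTCA) and RUNX (TGTGGT), and the CArG box and the MEF2 site by their consensus. The Nppa window held TGATAA at 122 bases upstream of the start and TGAAGTG at 241 bases upstream. The Nppb window held TGATAA at 95 and AGATAA at 84 bases upstream, and GGAATG, the TEAD word read on the other strand, at 105 bases upstream. Both peptide windows thus held a GATA word, as did 29.8% of 32851 mouse promoter windows of the same length; the NKX2-5 word was in 11.5% and the TEAD word in 14.7%. Npr1 had the RUNX word TGTGGT at 92 bases upstream, a word present in 16.8% of windows. None of the searched words lay in the windows of Npr2, Npr3 or Corin, and none of the AP-1 word (7.81% of all windows), the CArG box (1.63%) or the MEF2 site (0.557%) lay in any of the 6. The windows of Npr3 and Corin, from RefSeq starts at 11907371 and 72504540, did not end within a GENCODE transcript of the gene. Their lack of words may therefore not describe the promoters of the transcripts counted. A match is a description of letters and not evidence of a bound site.

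Nppa was the member with the largest TAC difference. WT_NS libraries 1, 2 and 3 had 272, 226 and 150 CPM, and the WT_TAC libraries 1243, 754 and 623 CPM. The Alox5ko_NS libraries had 172, 202 and 271 CPM, and the Alox5ko_TAC libraries 840, 278 and 1238 CPM. All 6 TAC libraries lay above all 6 NS libraries, but Alox5ko_TAC 2, at 278 CPM, lay just above the highest NS library, WT_NS 1, at 272 CPM.

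Mean Nppa was 216 ± 61.9 CPM without and 873 ± 327 CPM with TAC in WT (SD, n = 3), a ratio of 4.04. In Alox5ko it was 215 ± 51.0 CPM without and 786 ± 482 CPM with TAC (SD, n = 3), a ratio of 3.66. Averaged over both genotypes, Nppa rose with TAC by 1.94 on the log2 scale (SE 0.379, 95% interval 1.07 to 2.81, edgeR adjusted p = 0.0253). Here and throughout, p-values come from edgeR's quasi-likelihood test across all 15542 genes with Benjamini-Hochberg adjustment, and called means an adjusted p below 0.05. In this averaged comparison 1 of the 6 members was called, against 5.08% of all genes, and 1 of 6 (Nppa) had TAC and NS libraries without overlap, against 2.7% of all genes. The fold change of Nppa ranked 20th from the top of all genes tested.

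That call rested on the full set of libraries. It was lost when any one of WT_NS 1, 2 or 3, WT_TAC 1, Alox5ko_NS 1 or 2, or Alox5ko_TAC 1 or 3 was left out, with estimates over the 12 leave-outs of 1.70 to 2.15 and adjusted p of 0.00408 to 0.0729. Within a genotype Nppa was not called: the TAC difference was 2.02 in WT (SE 0.538, edgeR adjusted p = 0.165) and 1.87 in Alox5ko (SE 0.535, edgeR adjusted p = 0.155). DESeq2, run as the alternative, called it in both, with adjusted p of 0.00392 in WT and 0.00766 in Alox5ko. Without Alox5ko_TAC 2, the Alox5ko difference was 2.27 (edgeR adjusted p = 0.0311). The spread of Nppa between libraries of a group was large, with a biological coefficient of variation of 0.429, above that of 99.4% of genes.

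Because Nppa is abundant in atria, 10 atrial markers were read beside it. Their summed level, in CPM of the library total, was 199 to 303 for WT_NS, 180 to 235 for WT_TAC, 203 to 229 for Alox5ko_NS and 167 to 270 for Alox5ko_TAC. Most of that sum came from the potassium channel genes Kcnj3 (56.7 to 115 CPM) and Kcnk3 (75.9 to 94.5 CPM). The CPM of single atrial markers, here and in the next paragraph, are also of the library total, without the normalization factors used for Nppa. Myl4, another atrial myosin light chain, had 62.1, 14.8 and 24.0 CPM for WT_NS, 51.8, 6.08 and 15.5 for WT_TAC, 1.32, 1.46 and 27.5 for Alox5ko_NS and 7.89, 1.67 and 76.9 for Alox5ko_TAC. Dkk3, a secreted Wnt modulator, had 7.83, 4.83 and 3.77 CPM for WT_NS, 22.5, 4.22 and 8.60 for WT_TAC, 2.02, 0.952 and 4.75 for Alox5ko_NS and 7.68, 2.41 and 16.6 for Alox5ko_TAC. Myl4 and Dkk3 were thus highest, among TAC libraries, in WT_TAC 1 and Alox5ko_TAC 3. The averaged TAC difference was 0.52 for Myl4 (SE 1.07, edgeR adjusted p = 0.856) and 1.45 for Dkk3 (SE 0.623, edgeR adjusted p = 0.254). Myl7, the atrial light chain used for the fits that follow, had 264, 52 and 105 counts in WT_NS, 168, 18 and 38 in WT_TAC, 0, 7 and 107 in Alox5ko_NS, and 15, 0 and 276 in Alox5ko_TAC. Among markers most specific to atrial tissue, Sln had 0 to 27 counts, and Bmp10 was at 0 in all libraries but Alox5ko_NS 3, with 3 counts. None of the 8 atrial markers tested was called as higher with TAC, and 1, Kcnj3, was called as lower (-0.48, SE 0.117, edgeR adjusted p = 0.0384). Of all 15542 genes tested, 449 were called higher and 341 lower. The call of Kcnj3 held in 3 of the 12 leave-outs. It was lost without WT_NS 1 or 3, WT_TAC 1 or 2, any Alox5ko_NS library, or Alox5ko_TAC 1 or 3.

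The libraries with the highest Nppa, WT_TAC 1 and Alox5ko_TAC 3, were also the TAC libraries with the most Myl7, Myl4 and Dkk3, and Alox5ko_TAC 2, with the lowest Nppa of the TAC libraries, had 0 Myl7 counts. Other listed markers did not share this order. Kcnj3 was lowest of all libraries in WT_TAC 1 (56.7 CPM), and Kcnk3 in Alox5ko_TAC 3 (75.9 CPM). Among TAC libraries, Stard10 was highest in WT_TAC 3 (10.4 CPM) and Nr2f2 in WT_TAC 2 (8.84 CPM). Sln had the most counts in Alox5ko_TAC 3 (20), but fewer in WT_TAC 1 (5) than in WT_TAC 3 (8). The part of atrial RNA in the Nppa difference was not tested, and the libraries and fits below were chosen after seeing the data. Of the libraries with at most 100 Myl7 counts, Alox5ko_TAC 1 (15 counts) had 840 CPM of Nppa and Alox5ko_TAC 2 (0 counts) had 278 CPM. WT_TAC 2 (18 counts) had 754 CPM and WT_TAC 3 (38 counts) had 623 CPM. Of the NS libraries, Alox5ko_NS 1 (0 counts) had 172 CPM, Alox5ko_NS 2 (7 counts) 202 CPM and WT_NS 2 (52 counts) 226 CPM. With the log2 Myl7 level of each library as a covariate, a fit chosen after seeing the data, the averaged TAC difference of Nppa was 1.90 (SE 0.255, edgeR adjusted p = 0.00732). In the same fit the difference was 2.25 in WT (edgeR adjusted p = 0.0452) and 1.54 in Alox5ko (edgeR adjusted p = 0.115). On only the 7 libraries with at most 100 Myl7 counts, also chosen after seeing the data, it was 1.59 (SE 0.533, edgeR adjusted p = 0.488), no longer called, with 1 library left in WT_NS that was assumed to vary like the other groups.

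Nppa shares sequence with an annotated antisense gene, Gm13054 (148001091 to 148004014 on the minus strand), which covers 532 of the 865 exonic bases of Nppa. Gm13054 had 1739 to 13835 counts, and its count was 50.3% to 54.3% of the Nppa count in every library. Its averaged TAC difference was 1.93 (SE 0.375, edgeR adjusted p = 0.0249), lost under the leave-outs that also ended the call of Nppa. The libraries were directional, but whether counting used the strand is not given in the sources used here, so reads of Nppa and Gm13054 cannot be told apart.

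**Figure D1:**
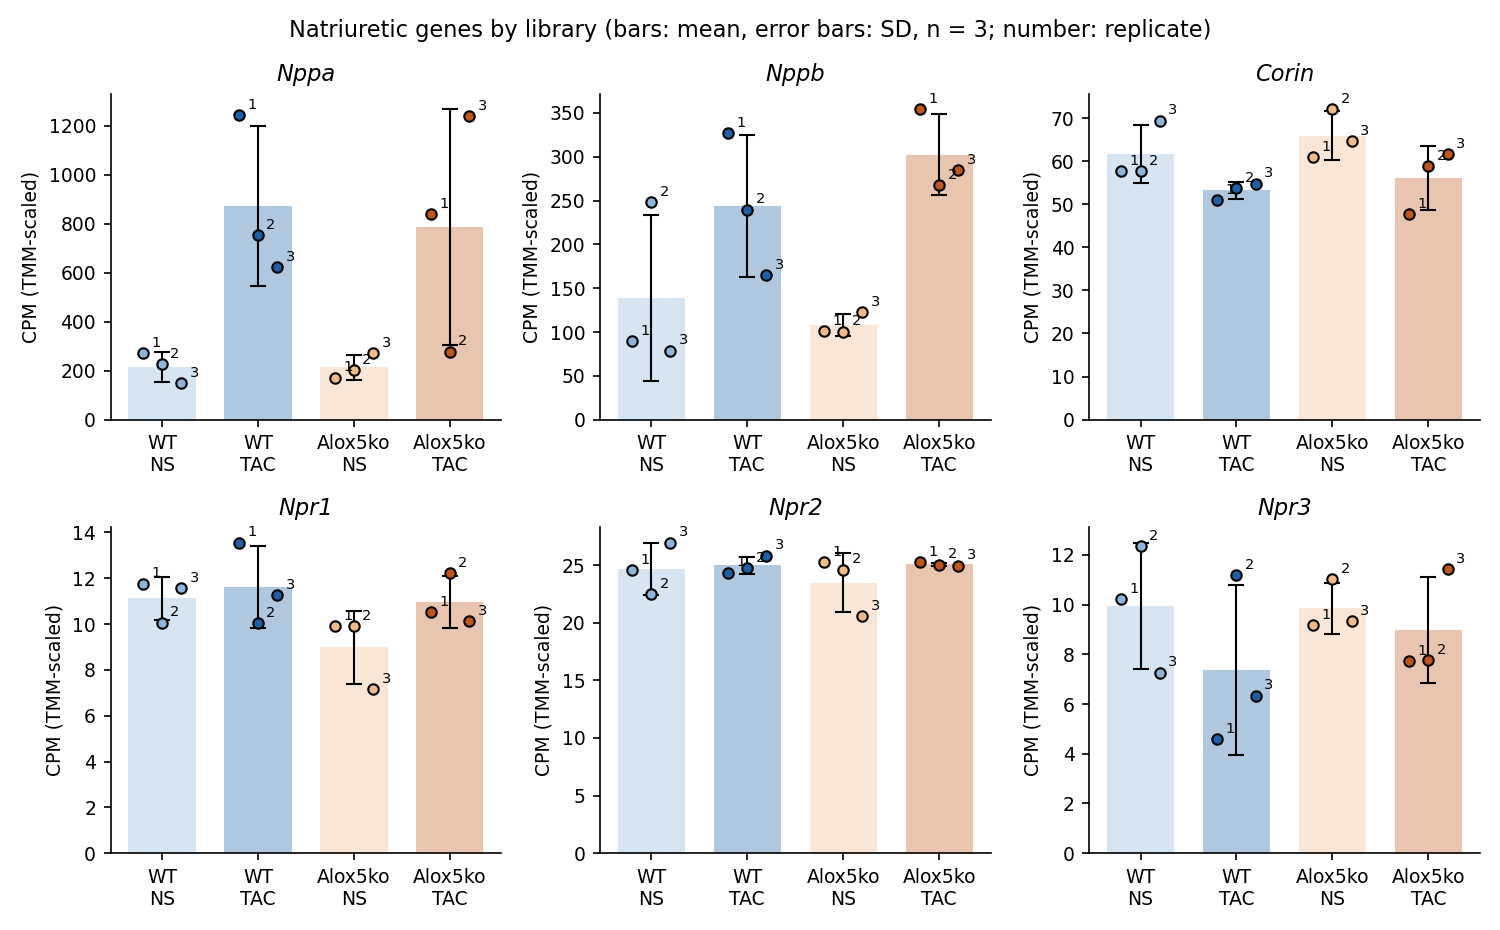
Levels of the 6 natriuretic genes in each of the 12 libraries, in CPM with TMM scaling on an axis from 0, by group on the horizontal axis; bars are means, error bars the SD of 3 libraries, and the number beside a point is the replicate. The TAC libraries of Nppa lay above all NS libraries, with Alox5ko_TAC 2 at 278 CPM, WT_NS 2 reached 248 CPM of Nppb, and Npr2 stayed between 20.6 and 27.0 CPM.

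Nppb lay higher in the Alox5ko_TAC than in the Alox5ko_NS libraries, a difference not called in the main fit. In WT, 1 control library lay within the TAC range. Libraries 1, 2 and 3 had 89.7, 248 and 78.8 CPM of Nppb in WT_NS, against 327, 240 and 165 CPM of it in WT_TAC. The Alox5ko_NS libraries had 101, 100.4 and 123 CPM, and the Alox5ko_TAC libraries 354, 268 and 285 CPM. WT_NS 2 thus had more Nppb than WT_TAC 2 and 3, while the Alox5ko groups did not overlap, as was so for 18% of all genes.

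Mean Nppb was 139 ± 94.6 CPM without and 244 ± 80.8 CPM with TAC in WT, and 108 ± 12.9 CPM without and 302 ± 46.0 CPM with TAC in Alox5ko (SD, n = 3). The log2 difference with TAC was 0.81 in WT (SE 0.441, edgeR adjusted p = 0.540) and 1.49 in Alox5ko (SE 0.447, edgeR adjusted p = 0.177). Averaged over genotypes it was 1.15 (SE 0.314, 95% interval 0.43 to 1.87, edgeR adjusted p = 0.0828), short of the threshold in edgeR and past it in DESeq2 (adjusted p = 0.0119). WT_NS 2 decided this value: without it the averaged difference was 1.51 (edgeR adjusted p = 0.00286), that in WT 1.53 (edgeR adjusted p = 0.0570) and that in Alox5ko 1.49 (edgeR adjusted p = 0.0235). On only the 6 Alox5ko libraries the difference of 1.49 had an edgeR adjusted p of 2.86e-05. In the fit with at most 100 Myl7 counts, whose single WT_NS library is WT_NS 2, it was -0.29 in WT (edgeR adjusted p = 0.849) and 1.63 in Alox5ko (edgeR adjusted p = 0.0385).

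The balance of the peptide genes, as the ratio of Nppa to Nppb in RPKM, varied from 0.823 to 3.92 between libraries. It was 2.74, 0.823 and 1.71 in WT_NS, 3.44, 2.84 and 3.40 in WT_TAC, 1.54, 1.81 and 1.99 in Alox5ko_NS, and 2.14, 0.938 and 3.92 in Alox5ko_TAC. The WT_TAC ratios lay above all WT_NS ratios, and the Alox5ko groups overlapped. Nppb exceeded Nppa in 2 libraries: WT_NS 2, through high Nppb, and Alox5ko_TAC 2, through Nppa near the control level beside 268 CPM of Nppb. Over the 12 libraries, which share their group and scaling, the log2 levels of Nppa and Nppb correlated with a Pearson r of 0.77 and, as deviations from the group means, of 0.37.

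**Figure D2:**
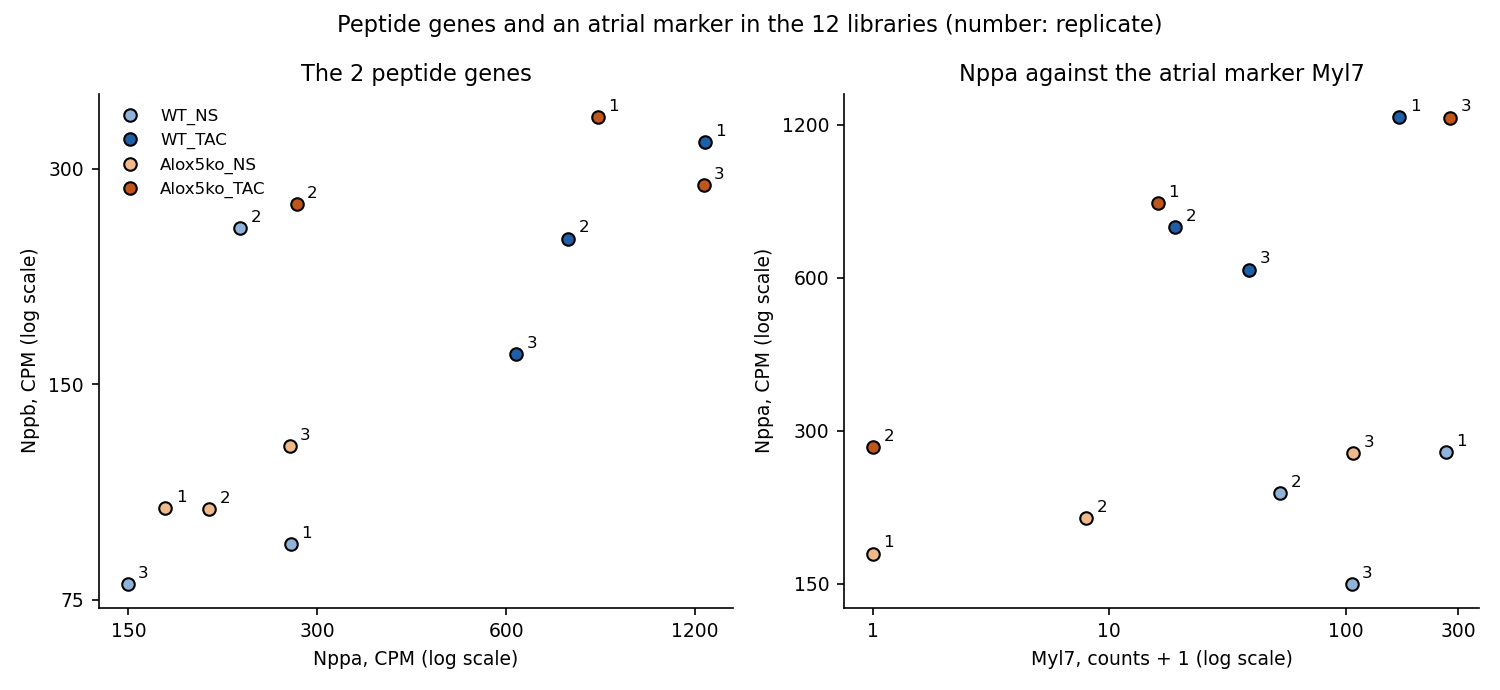
Left, Nppb against Nppa in the 12 libraries, both in CPM on log axes; right, Nppa in CPM against Myl7 counts plus 1, both on log axes; each point is a library, coloured by group and numbered by replicate. WT_NS 2 and Alox5ko_TAC 2 sit together at Nppb of 248 and 268 CPM and Nppa of 226 and 278 CPM. At few Myl7 counts, Alox5ko_TAC 1, WT_TAC 2 and Alox5ko_TAC 2 sit at 840, 754 and 278 CPM of Nppa.

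The genes whose levels ran most like Nppa over the 12 libraries, of 10442 genes with a mean log2 CPM of at least 1, were Thbs4 (r = 0.97), Pam (0.97), Ltbp2 (0.96), Ccdc68 (0.95) and Comp (0.95). Thbs4 encodes a thrombospondin of the matrix, and Pam the enzyme that amidates peptide ends and is abundant in atrial secretory granules. In CPM, the Thbs4 level was 7.49, 9.24 and 3.90 (WT_NS), 80.9, 19.8 and 27.1 (WT_TAC), 3.92, 3.50 and 5.69 (Alox5ko_NS), and 34.7, 7.86 and 54.7 (Alox5ko_TAC). As with Nppa, Alox5ko_TAC 2 had the lowest TAC value of Thbs4, within the range of the NS libraries. Thbs4 was picked for running like Nppa over these same libraries, so this likeness follows from the choice. These r values describe 12 libraries that share their groups, and as deviations from group means they were 0.88 to 0.93 for the 5 genes.

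Nppb ran with a different set: Tnfrsf12a (r = 0.98), Ankrd1 (0.95), Ankrd23 (0.94), Rcan1 (0.94) and RP23-386F15.2 (0.94). Tnfrsf12a encodes the TWEAK receptor, Ankrd1 and Ankrd23 encode ankyrin repeat proteins of the sarcomere that respond to stretch, and Rcan1 is a target and regulator of calcineurin. The WT_NS libraries had 14.3, 31.3 and 15.6 CPM of Tnfrsf12a and the WT_TAC libraries 38.9, 34.8 and 20.7 CPM. The Alox5ko_NS libraries had 15.4, 15.02 and 18.8 CPM and the Alox5ko_TAC libraries 46.4, 31.1 and 36.5 CPM. Ankrd1 was at 1216, 2620 and 1312 CPM in WT_NS, so WT_NS 2 was the highest control library for all 3 of Nppb, Tnfrsf12a and Ankrd1. Tnfrsf12a and Ankrd1 were picked for running like Nppb over these same libraries. That they share its high control library follows from the choice and is not separate evidence. As deviations from the group means, r was 0.80 to 0.95 for the 5 genes.

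Other myocyte stress genes were read as a list of 11, chosen with earlier results of these data known. With TAC averaged over genotypes, all 11 differences were positive (median log2 difference 0.66, against 0.00 over all genes). Of the 11, 8 were called higher, against 449 of all 15542 genes tested. The 8 were Acta1 (2.40, edgeR adjusted p = 0.0295), Ankrd1, Xirp2, Actn2, Fhl1, Des, Uchl1 and Synpo2l, mostly genes of the sarcomere and its anchoring. Summed over the list, WT_NS 2 had the most of the NS libraries, 10694 CPM, followed by Alox5ko_NS 2 with 9434 CPM. Alox5ko_TAC 2 had the least of the TAC libraries, 11949 CPM. The list holds Ankrd1 and Rcan1, which were also picked above for running like Nppb. Ankrd1 alone had 60661 counts in WT_NS 2 against 38431 in Alox5ko_NS 2. The first place of WT_NS 2 in the sum depends on it and is not separate evidence. Of 10 cardiomyocyte markers, 1 was called, Mybpc3 (0.32, edgeR adjusted p = 0.0159), against 5.08% of all genes.

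Markers of other cell types were read beside the peptides, and their part in the results was not tested. Fibroblast markers were called higher for 3 of 10 (Lum, Pi16 and Mfap5) and activated fibroblast markers for 2 of 7 tested (Cilp and Thbs4, with a list median of 1.58). Of all 15542 genes tested, 449 were called higher. The summed activated fibroblast level, in CPM of the library total, was 152 to 192 for WT_NS, 182 to 455 for WT_TAC, 87.9 to 112 for Alox5ko_NS and 119 to 288 for Alox5ko_TAC, and among Alox5ko_TAC libraries it was lowest in library 2. None of 8 conduction system markers (median 0.19), 11 endothelial and endocardial (0.13), 10 smooth muscle and pericyte (0.05) or 8 macrophage markers (-0.07) was called, against 5.08% of all genes. Nor was the 1 adipocyte marker tested. None of 5 lung markers was tested, and 2 of them were at 0 in every library.

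Corin (ENSMUSG00000005220.10, chromosome 5, 72300025 to 72504473, minus strand) was lower with TAC by a small margin that missed the threshold. The WT_NS libraries had 57.7, 57.6 and 69.4 CPM of Corin, and the WT_TAC libraries 51.0, 53.8 and 54.8 CPM. The Alox5ko_NS libraries had 61.0, 72.1 and 64.6 CPM, and the Alox5ko_TAC libraries 47.8, 58.9 and 61.6 CPM. The WT groups did not overlap, while the highest Alox5ko_TAC library lay just above the lowest Alox5ko_NS library.

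The log2 difference of Corin with TAC was -0.21 in WT (SE 0.101, edgeR adjusted p = 0.417) and -0.23 in Alox5ko (SE 0.1001, edgeR adjusted p = 0.280). Averaged over genotypes it was -0.22 (SE 0.0709, 95% interval -0.37 to -0.07, edgeR adjusted p = 0.0764). It passed the threshold when every gene with a count was tested, at -0.23 (edgeR adjusted p = 0.0156). The ratio of Nppa to Corin in RPKM, substrate gene over convertase gene, was 13.4 to 29.4 in WT_NS and 17.5 to 26.2 in Alox5ko_NS, and 70.9 to 152 in WT_TAC and 29.5 to 126 in Alox5ko_TAC. Over the 12 libraries Corin correlated with Nppa at r = -0.69 and, as deviations from the group means, at -0.29.

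Npr1 (ENSMUSG00000027931.12, chromosome 3, 90450591 to 90465866, minus strand), the cyclase receptor for both cardiac peptides, had 161 to 289 counts per library. Its CPM in libraries 1, 2 and 3 were 11.8, 10.1 and 11.6 for WT_NS, 13.6, 10.0 and 11.3 for WT_TAC, 9.90, 9.92 and 7.16 for Alox5ko_NS and 10.5, 12.2 and 10.1 for Alox5ko_TAC. The Alox5ko_NS libraries lay below all others by a narrow margin, 9.92 CPM in Alox5ko_NS 2 against 10.03 CPM in WT_TAC 2. The share of all genes with such a split was not counted. Alox5ko_NS 3, the library with the largest mitochondrial share, was the lowest. Without TAC, Npr1 differed by -0.30 between Alox5ko and WT (SE 0.139, 95% interval -0.59 to -0.01, edgeR adjusted p = 0.762). Without Alox5ko_NS 3 that difference was -0.17 (edgeR adjusted p = 0.964). Under TAC it was -0.08 (SE 0.139, edgeR adjusted p = 0.919). The TAC difference of Npr1 was 0.06 in WT (edgeR adjusted p = 0.922), turning negative without WT_NS 2 or WT_TAC 1 (-0.01 and -0.06), and 0.28 in Alox5ko (SE 0.140, edgeR adjusted p = 0.365).

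Npr2 (ENSMUSG00000028469.15, chromosome 4, 43631935 to 43651244, plus strand), the cyclase receptor that prefers the C-type peptide, was the steadiest member. Its CPM in libraries 1, 2 and 3 were 24.6, 22.5 and 27.0 for WT_NS, 24.4, 24.7 and 25.8 for WT_TAC, 25.3, 24.6 and 20.6 for Alox5ko_NS and 25.2, 25.0 and 25.0 for Alox5ko_TAC. The highest library exceeded the lowest by a factor of 1.31, and that lowest was again Alox5ko_NS 3. The averaged TAC difference was 0.06 with a 95% interval of -0.09 to 0.20 (edgeR adjusted p = 0.722), and the averaged genotype difference was -0.03 with an interval of -0.17 to 0.11 (edgeR adjusted p = 0.921).

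Npr3 (ENSMUSG00000022206.7, chromosome 15, 11839896 to 11907287, minus strand), the clearance receptor, was lowest of the 6 and noisy between libraries, with 98 to 296 counts. The count table ends the gene at 11905674. Its CPM in libraries 1, 2 and 3 were 10.2, 12.4 and 7.27 for WT_NS, 4.598, 11.2 and 6.34 for WT_TAC, 9.19, 11.03 and 9.34 for Alox5ko_NS and 7.72, 7.76 and 11.4 for Alox5ko_TAC. The groups overlapped in both genotypes, with WT_TAC 1 the lowest of the 12. The TAC difference was -0.42 in WT (SE 0.309, edgeR adjusted p = 0.667), -0.87 without WT_TAC 2 and -0.18 without WT_TAC 1, and -0.14 in Alox5ko (SE 0.303, edgeR adjusted p = 0.887). Its averaged interval ran from -0.76 to 0.20, so a fall or a small rise were both within it.

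The receptor balance was read as the ratio of Npr1 to Npr3 in RPKM. It was 1.67, 1.18 and 2.31 in WT_NS, 4.27, 1.298 and 2.57 in WT_TAC, 1.56, 1.301 and 1.11 in Alox5ko_NS, and 1.97, 2.28 and 1.28 in Alox5ko_TAC. All 4 groups overlapped with their neighbours, and the single high ratio was that of WT_TAC 1. The ratio of Npr2 to Npr1 was 1.84 to 2.53 in the WT and Alox5ko_TAC libraries and 2.54 to 2.95 in Alox5ko_NS. The Alox5ko_NS libraries thus lay above the rest only narrowly, with 2.543 in Alox5ko_NS 2 against 2.527 in WT_TAC 2. Antisense genes with overlapping exons were annotated at Npr1 (Gm16048, 51 to 118 counts), Npr2 (Gm12473, 23 to 48) and Corin (Gm20647, 69 to 130). All had fewer counts than the member beside them. At Npr3, Gm5144 lies on the opposite strand with overlapping exons, and no counts were available for it.

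**Figure D3:**
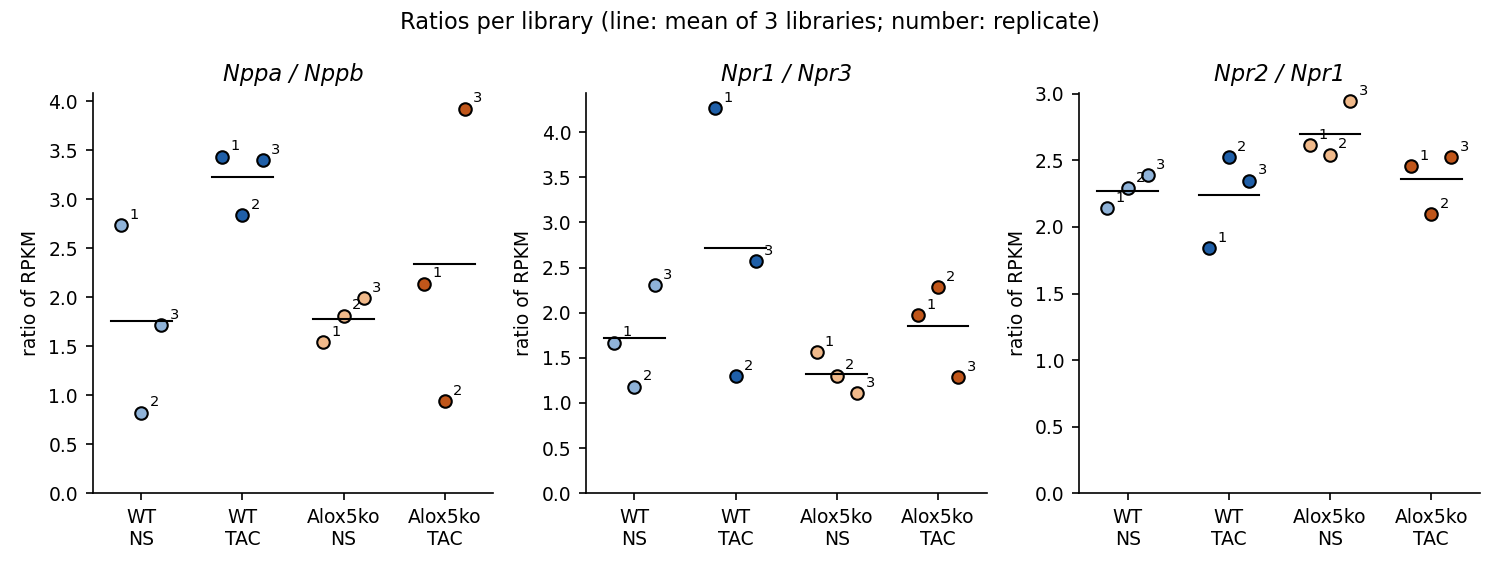
Ratios of RPKM in each library, from 0 on the vertical axis, for Nppa to Nppb, Npr1 to Npr3 and Npr2 to Npr1, by group on the horizontal axis; points are libraries numbered by replicate and lines are the means of 3. Nppa to Nppb ran from 0.823 in WT_NS 2 to 3.92 in Alox5ko_TAC 3, Npr1 to Npr3 reached 4.27 in WT_TAC 1, and Npr2 to Npr1 was 2.54 to 2.95 in Alox5ko_NS.

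Within a genotype, none of the 6 members passed the threshold with TAC. In WT, 0 of 6 were called, against 0.766% of all genes, and 2 of 6 (Nppa and Corin) had groups without overlap, against 18.9% of all genes. In Alox5ko, 0 of 6 were called, against 1.34% of all genes, and 3 of 6 (Nppa, Nppb and Npr1) had groups without overlap, against 18% of all genes. At an unadjusted p under 0.05 there were 2 members in WT (Nppa and Corin) and 3 in Alox5ko (Nppa, Nppb and Corin), against 11.9% and 14.5% of all genes. DESeq2 called 1 member, Nppa, in each genotype.

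The comparison of genotypes asked whether the peptide system differed in mice lacking Alox5, the gene the study set out to follow in hypertrophy. No member was called. Under TAC, 0 of 6 passed, against 0.109% of all genes, and 0 of 6 had groups without overlap, against 12.3% of all genes. There Nppa differed by -0.15 (95% interval -1.34 to 1.03) and Nppb by 0.31 (-0.69 to 1.31), and every adjusted p among the 6 was at least 0.874 in edgeR. The interval of Nppa thus covered differences of 2-fold in either direction. The sign for Nppa turned to 0.25 without Alox5ko_TAC 2 and was -0.64 without Alox5ko_TAC 3. Without TAC, 0 of 6 passed, against 0.0386% of all genes, and 1 of 6 (Npr1) had groups without overlap, against 13.6% of all genes. There Nppa differed by -0.01 (-1.20 to 1.19), and Nppb by -0.36 (-1.38 to 0.65), a value that was 0.36 without WT_NS 2.

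Averaged over both treatments, 0 of 6 members were called between genotypes, against 0.154% of all genes, with the smallest adjusted p for Npr1 (-0.19, SE 0.0983, edgeR adjusted p = 0.543). The interaction, which sets the TAC difference in Alox5ko against the one in WT, called 0 of 6 members, against 0% of all genes, with 0 members and 835 genes at an unadjusted p under 0.05; DESeq2 called 1 gene, no member. It was -0.15 for Nppa (95% interval -1.83 to 1.54) and 0.67 for Nppb (-0.75 to 2.10, and -0.05 without WT_NS 2).

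**Figure D4:**
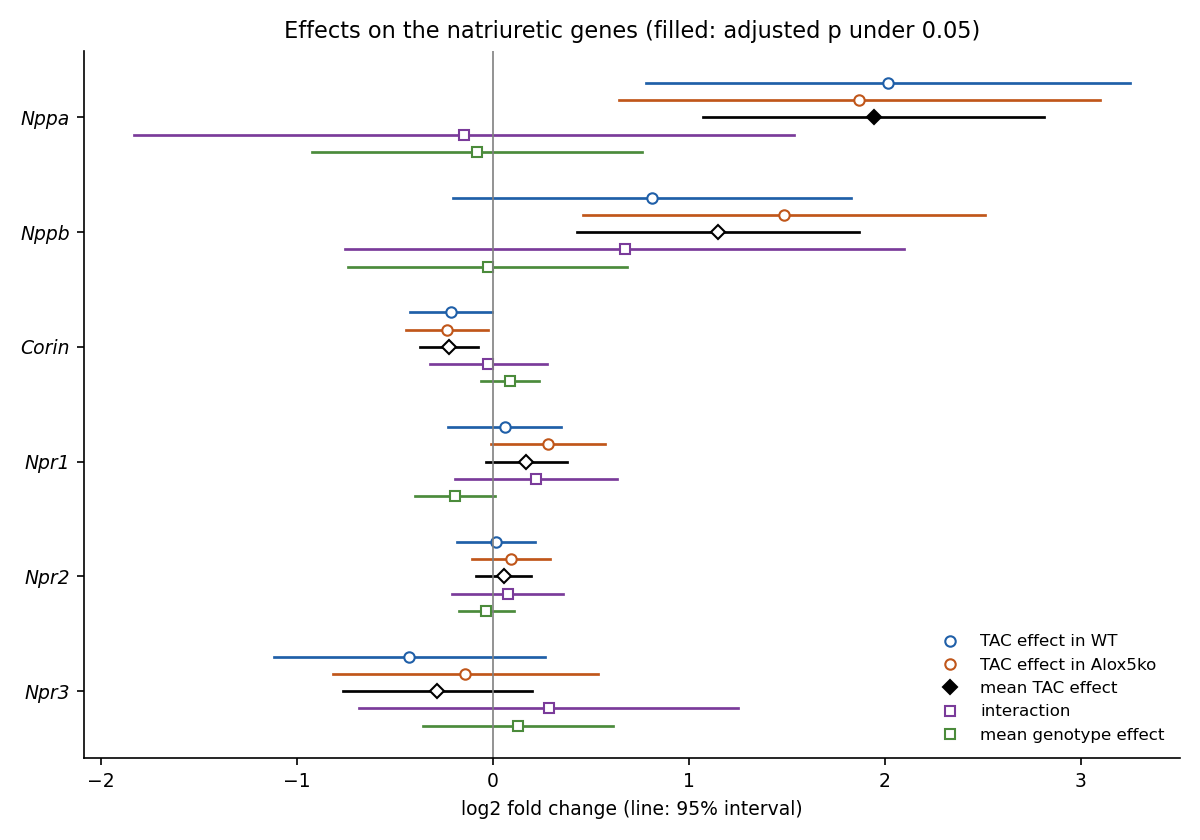
Log2 fold changes of the 6 genes with 95% intervals for 5 contrasts: TAC in WT, TAC in Alox5ko, TAC averaged over genotypes, the interaction and the averaged genotype difference; filled symbols have an adjusted p under 0.05. The single filled symbol of the genes is Nppa in the averaged TAC contrast at 1.94, and the intervals of Npr2 are the narrowest.

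Around the members, a list of 21 genes of peptide processing, peptide degradation and cGMP signalling was read, of which 18 were tested; Nppc, Ostn and Prkg2 were not. With TAC averaged over genotypes, 0 of the 18 were called, against 5.08% of all genes. Of the 18, 6 had positive and 12 negative differences, and the median was -0.05, against 0.00 over all genes. The processing proteases Furin (-0.04) and Pcsk6 (0.11, both log2 differences) were among them. The smallest adjusted p values were those of Mme, which encodes neprilysin, the main protease that degrades natriuretic peptides (-0.45, SE 0.147, edgeR adjusted p = 0.0847), and of Pde1c, a phosphodiesterase that splits cGMP (-0.22, SE 0.0762, edgeR adjusted p = 0.1004). The cGMP-dependent kinase Prkg1 (0.04) and the phosphodiesterases Pde5a (0.02) and Pde9a (0.09) had averaged differences near 0. Their signs were opposite in WT and Alox5ko: 0.20 and -0.12 for Prkg1, -0.09 and 0.14 for Pde5a, and 0.25 and -0.06 for Pde9a. Another phosphodiesterase gene, Pde3b, was at -0.68 in WT (edgeR adjusted p = 0.210) and 0.11 in Alox5ko. Within a genotype, 0 of the 18 were called with TAC, against 0.766% of all genes in WT and 1.34% in Alox5ko.

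Between genotypes 1 gene of this list was called: Ide, which encodes insulin-degrading enzyme, a protease that also cuts atrial natriuretic peptide. The WT_NS libraries had 33.0, 23.7 and 26.6 CPM of Ide and the WT_TAC libraries 23.2, 23.3 and 27.5 CPM. The Alox5ko_NS libraries had 50.4, 52.4 and 48.7 CPM and the Alox5ko_TAC libraries 35.2, 46.0 and 49.2 CPM. All 6 Alox5ko libraries lay above all 6 WT libraries, and the share of all genes with a split by genotype over the 12 libraries was not counted. Averaged over treatments, Ide was higher in Alox5ko by 0.84 (SE 0.0900, edgeR adjusted p = 0.000166), and the call held without each of the 12 libraries in turn, with an adjusted p of at most 0.0017. The difference was 0.82 under TAC (edgeR adjusted p = 0.00965), lost without Alox5ko_TAC 2 or 3, and 0.87 without TAC (edgeR adjusted p = 0.0131), lost without WT_NS 2 or 3 or any Alox5ko_NS library. The other 17 genes were not called, 11 of them with negative genotype differences, the largest for Pde9a (-0.56, edgeR adjusted p = 0.230) and the guanylyl cyclase subunit Gucy1a3 (-0.42, edgeR adjusted p = 0.202).

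**Figure D5:**
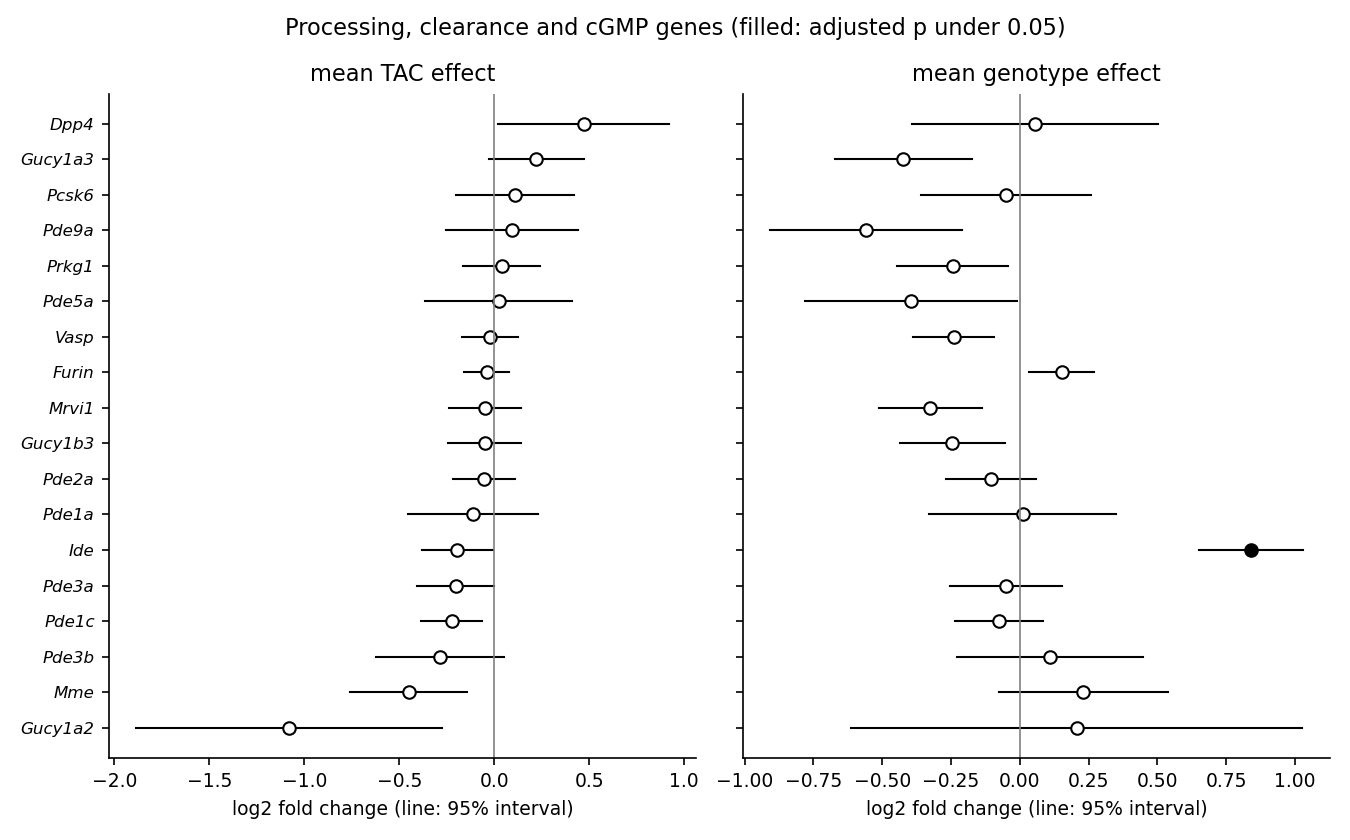
Log2 fold changes of the 18 tested processing, clearance and cGMP genes with 95% intervals, for TAC averaged over genotypes (left) and Alox5ko against WT averaged over treatments (right); filled points have an adjusted p under 0.05. No point is filled for TAC, where Mme is at -0.45, and Ide, at 0.84, is the filled point for genotype.

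Of a list of 19 cardiac transcription factors and histone deacetylases linked to the peptide genes, 18 were tested, and Runx2, the factor in the series title, was too low to be tested. With TAC averaged over genotypes, 1 of the 18 was called, against 5.08% of all genes, so the list lay near that share. The gene called was Mef2a, a factor that binds muscle gene promoters, which fell by 0.38 on the log2 scale (edgeR adjusted p = 0.00234). Its CPM in libraries 1, 2 and 3 were 113, 108 and 109 for WT_NS, 88.0, 93.4 and 114 for WT_TAC, 116, 126 and 123 for Alox5ko_NS and 72.1, 83.1 and 85.8 for Alox5ko_TAC. The difference was -0.60 in Alox5ko (edgeR adjusted p = 0.00435) and -0.16 in WT (SE 0.0920, edgeR adjusted p = 0.532), where WT_TAC 3 lay above all WT_NS libraries. The interaction was -0.44 (edgeR adjusted p = 0.630). The averaged call and the Alox5ko call held without each of the 12 libraries in turn, and the averaged one was lost in the fit with at most 100 Myl7 counts (-0.35, edgeR adjusted p = 0.129). The GATA factor Gata4 (0.12), Nkx2-5 (-0.14) and Tead1 (0.09) were not called, and the median of the 18 was -0.05. Hand2 was not called either, but its difference in WT was -0.67 (SE 0.153, edgeR adjusted p = 0.0745). Its CPM in libraries 1, 2 and 3 were 190, 142 and 189 for WT_NS and 131, 82.3 and 114 for WT_TAC. They were 159, 158 and 157 for Alox5ko_NS and 152, 152 and 128 for Alox5ko_TAC.

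Of 12 neighbours of Nppa and Nppb on chromosome 4 that were listed, 10 were tested, among them Clcn6, Agtrap, Plod1 and Mfn2. With TAC averaged over genotypes, 0 of the 10 were called, against 5.08% of all genes (median 0.00, from -0.12 for Fbxo6 to 0.12 for Fbxo44).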

How the data were processed

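Left ventricle RNA of 12 libraries was analysed. Per the labels' protocols, polyadenylated RNA was made into directional libraries and read as 150-bp pairs. The submitters' processing notes name HISAT2, DESeq2 and the builds GRCh38 and mm10; the counting program, annotation and strand setting are not given in the sources used here. The authors deposited raw counts per gene and RPKM values; all 336792 RPKM values recomputed from the counts and gene lengths were equal within 0.1%.

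Genes were kept by filterByExpr (minimum count 10, minimum total 15), scaled by TMM and fitted with edgeR 4.0.16 (limma 3.58.1, R 4.3.3) over all 12 libraries with 1 coefficient per group and robust estimation. CPM values use the TMM factors, except summed lists and the per-library values of the atrial markers Kcnj3, Kcnk3, Myl4, Dkk3, Stard10 and Nr2f2. Those use the library total alone. SE is the fold change over the square root of F. The fit was tested on simulated data; its common biological coefficient of variation on the real data was 0.107. Libraries of a group differed by a chi-square per gene of 5.24 to 30.9, and none was counted as a duplicate. Alternatives were DESeq2 1.42.0, RLE factors, every gene with a count, the replicate number as a block, only the 6 libraries compared, and each library left out; fits on Myl7 were added after seeing the data.

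All 6 members were named in every comparison. Of each list the genes called were named, otherwise the 2 with the smallest adjusted p for averaged TAC, and for each member the 5 genes with the highest Pearson r of log2 CPM (prior count 2), leaving out predicted gene models. Genes named beyond this rule were chosen after their values were seen. The members and lists were chosen with earlier results of these data known. Symbols and positions were matched to GENCODE M21; promoter sequences are from RefSeq (GRCm38.p6), with 6 of 6 members matched.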

Additional observations from a re-analysis of the deposited data

How the results depend on the processing

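All of the following values come from edgeR's quasi-likelihood test unless DESeq2 is named; counts are of genes with an adjusted p under 0.05, and causes were not tested. DESeq2 called 281 genes for TAC in WT, 373 for TAC in Alox5ko, 59 for genotype under TAC, 24 for genotype without TAC, 1 for the interaction and 99 for averaged genotype, and of the 6 members 1 for TAC in WT, 1 for TAC in Alox5ko and 2 for averaged TAC; its Nppa value for genotype without TAC was 0.00019. Testing every gene with a count called 538 and 756 genes for TAC in WT and Alox5ko, 252 and 116 for genotype under and without TAC, 83 for the interaction, 1331 for averaged TAC (2 members) and 348 for averaged genotype, and turned genotype without TAC to 0.0059 for Nppa and 3.6e-05 for Npr3. On only the 6 libraries compared, 217 genes were called for TAC in WT, 39 and 18 for genotype under and without TAC, and 1 member for TAC in Alox5ko. RLE factors moved no call of a member.

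The Myl7 covariate called 1 member for TAC in WT and gave -0.0043 for Npr2 there. With at most 100 Myl7 counts, 4 genes were called for TAC in WT, where Nppb was -0.29, 25 for averaged TAC (0 members) and 1 member for TAC in Alox5ko.

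Same-numbered libraries of different groups did not deviate together (18 pairs, r of -0.12 to 0.09, none over 0.1), so the numbers were not taken to pair the samples. With the replicate number as a replicate block, averaged TAC was 1.88 for Nppa (adjusted p = 0.0563) and -0.22 for Corin (adjusted p = 0.0456), and averaged genotype was 0.043 for Nppb; no other call of a member moved.

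Leaving out each library in turn gave 17 to 180 genes for TAC in WT, 61 to 380 for TAC in Alox5ko (0 to 1 members), 10 to 29 and 2 to 7 for genotype under and without TAC, 0 to 1 for the interaction, 396 to 995 for averaged TAC (0 to 1 members) and 15 to 44 for averaged genotype. The count for averaged TAC moved by over 1.5 times without WT_NS 3, WT_TAC 1 or Alox5ko_TAC 3. That for TAC in WT did so without WT_NS 1 or 3, WT_TAC 3, Alox5ko_NS 1 or Alox5ko_TAC 2, and that for TAC in Alox5ko without WT_TAC 1 or any Alox5ko library. Values that changed sign were those of Npr1 (-0.065 to 0.15) and Npr2 (-0.045 to 0.086) for TAC in WT. For genotype under TAC they were Nppa (-0.64 to 0.25), Npr1 (-0.17 to 0.043) and Npr2 (-0.011 to 0.031). For genotype without TAC they were Nppa (-0.21 to 0.19), Nppb (-0.64 to 0.36), Npr2 (-0.13 to 0.015) and Npr3 (-0.20 to 0.17). For the interaction they were Nppa (-0.64 to 0.26), Nppb (-0.048 to 0.95), Npr2 (-0.0088 to 0.14) and Corin (-0.12 to 0.082). For averaged genotype they were Nppa (-0.32 to 0.12), Nppb (-0.17 to 0.33) and Npr2 (-0.063 to 0.011). None of these was called with all libraries. Npr1 and Npr3, with 98 to 296 counts a library, were the members with the fewest counts.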
